A study of Rattus norvegicus with 36 samples.

Results

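The step in dose from 5.41 to 54.1 mg/kg of the flame retardant HCDBCO was examined in rat liver, across every probe set of the array that is not a control. The 12 liver samples were chosen by the dose in their titles, 6 at each dose, out of 36 in the study. The study gave HCDBCO (hexachlorocyclopentadienyl-dibromocyclooctane) in corn oil by gavage, at a volume of 5 ml/kg once daily for 5 days, to male Sprague Dawley rats from Harlan that were 7 weeks old when it began. Its 6 groups of 6 samples were a vehicle group, given corn oil alone (0 mg/kg), 3 groups on low doses (0.05 and 0.54, then 5.41 mg/kg), and groups on 54.1 and on 541 mg/kg. RNA came from the left lobe of the liver 1 day after the last dose and was hybridised to one-colour Affymetrix 3′ expression arrays. All values are log2 expression values, n = 6 in each group, and a ± beside a group mean is the SD while a ± beside a difference is the standard error from limma. No label ties a sample to a numbered animal, so p-values measure only the spread between these samples, which may be technical. HCDBCO was given to whole animals and the tissue was a piece of whole liver, so fewer cells of a type and less RNA per cell cannot be told apart.

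The liver processes many swallowed lipophilic chemicals. Hepatocytes sense many of them through the nuclear receptors CAR and PXR, which bind DNA as partners of RXR and raise cytochrome P450 enzymes, conjugating enzymes and exporters. Cytochromes P450 and esterases first modify a compound, transferases then attach glucuronic acid, sulfate or glutathione, and pumps of the ABC family move the conjugate out of the cell. The transcription factor NRF2 raises an overlapping set of genes when reactive compounds or oxidants appear.

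The liver identity of the samples was clear from their markers. Of 14 listed hepatocyte markers, 11 were measured, and their mean level per sample lay between 13.23 and 13.42 at 5.41 mg/kg and between 13.21 and 13.3 at 54.1 mg/kg, near the top of the array's range of 1.94 to 14.7. The array of 54.1 mg/kg replicate 5 stood apart: its upper quartile was 6.95 where the other arrays had 7.03 to 7.14, its lower quartile 3.80 where they had 3.62 to 3.72, and limma gave it a weight of 0.39. The counts of chosen probe sets, the value of Ces2c and some of the list counts that moved are also given without it. The 3′ minus 5′ signal of the actin controls, a sign of RNA breakdown, was 1.11 ± 0.0556 at 5.41 mg/kg and 1.14 ± 0.107 at 54.1 mg/kg.

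Promoter sequence was looked up for the genes with the smallest p-values at the step, which carry the description that follows. Gnmt, Ugt2b1 and Ces2c had 1 RefSeq promoter entry each (assembly GRCr8). Elmod3 and Cyp2c6v1, also among the smallest p-values, had 2 and 0 entries and are not shown. The entries are shown as the bases before the listed start, from chr9:21752032-21752234, chr14:21378632-21378881 and chr1:270376951-270377200, all on the plus strand. The RefSeq gene table places the start of Gnmt earlier than the promoter table does, so its window was ended there. Capitals mark AGGTCA or its reverse complement TGACCT, the short motif read by many nuclear receptors, searched on both strands.
Gnmt: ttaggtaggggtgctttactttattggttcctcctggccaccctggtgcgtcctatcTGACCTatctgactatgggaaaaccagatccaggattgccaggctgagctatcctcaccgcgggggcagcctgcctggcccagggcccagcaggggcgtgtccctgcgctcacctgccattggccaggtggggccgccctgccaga
Ugt2b1: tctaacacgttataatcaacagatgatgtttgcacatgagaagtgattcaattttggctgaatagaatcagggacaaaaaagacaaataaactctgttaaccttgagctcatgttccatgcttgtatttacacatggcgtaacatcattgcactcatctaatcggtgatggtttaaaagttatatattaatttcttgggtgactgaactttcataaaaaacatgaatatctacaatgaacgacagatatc
Ces2c: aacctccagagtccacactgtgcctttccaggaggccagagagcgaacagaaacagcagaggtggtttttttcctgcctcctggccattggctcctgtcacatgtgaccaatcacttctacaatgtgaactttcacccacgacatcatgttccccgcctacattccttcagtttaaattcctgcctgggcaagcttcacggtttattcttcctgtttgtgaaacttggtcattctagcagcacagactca
The Gnmt promoter held 1 match, which began 193 bases before the start in the promoter table, and the other two held 0. Of all 33469 promoter windows of 250 bases, 4707 (14.1%) held at least 1 match. A match is a run of letters and was not tested as a binding site, and its absence from a window says nothing about the receptors.

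No probe set passed the false discovery rate (FDR) of 5% between 54.1 and 5.41 mg/kg. Among the probe sets with small p-values, those of the drug-processing genes Cyp2c6v1, Ugt2b1, Ces2c and the Cyp2b pair were higher at 54.1 mg/kg, with no overlap between the groups. Gnmt, an enzyme of the methionine cycle, had the smallest p and was lower there. Of 31042 probe sets tested with limma, 0 (0.0%) had an adjusted p under 0.05, and the smallest adjusted p was 0.532. At an unadjusted p under 0.05 there were 1348 (4.34%), of which 763 were higher and 585 lower at 54.1 mg/kg. At an unadjusted p under 0.001 there were 24 (0.0773%), 16 higher and 8 lower. Both shares lie under those that the thresholds give by chance alone. The groups did not overlap for 44 probe sets (0.142%), 22 in each direction. A difference of at least 1.5-fold was seen for 44, of which 21 were higher and 23 lower. The median 95% interval of a difference reached 0.162 to either side, so shifts of that size were within the error for a typical probe set.

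**Figure D1:**
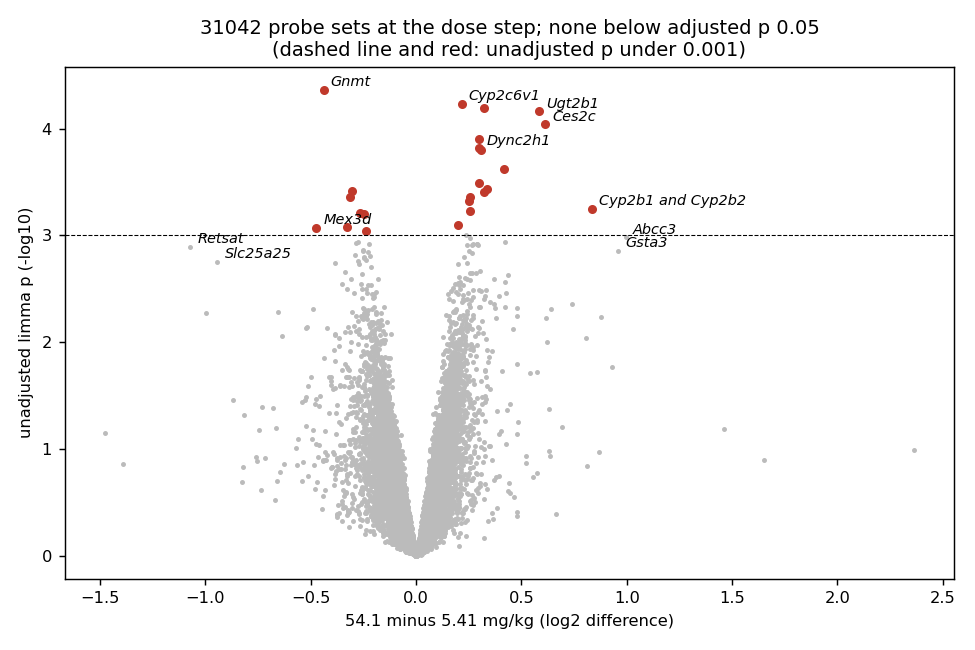
Each point is 1 of 31042 probe sets; the horizontal axis is the log2 difference of 54.1 minus 5.41 mg/kg (6 samples each) and the vertical axis the unadjusted limma p on a -log10 scale. The 24 probe sets with p under 0.001 are red; Abcc3, Gsta3, Retsat and Slc25a25 differed by about 1 log2 unit or slightly less but lie below the dashed line.

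The step had been labelled the onset of the response. Against vehicle, limma called 0 probe sets at 5.41 mg/kg (0.0%; 1498 at an unadjusted p under 0.05, 4.83%) and 23 (0.0741%) at 54.1 mg/kg. Those comparisons share the vehicle samples, and a call at one dose and none at another does not show that the doses differ. The direct test of the step, above, called none. The test of whether this step exceeded the step from 0.54 to 5.41 mg/kg also called 0 of 31042 (0.0%; limma, smallest adjusted p 1.0, 1002 at an unadjusted p under 0.05, 3.23%). The step from 54.1 to 541 mg/kg against this one called 0 as well (0.0%; limma, smallest adjusted p 0.679, 1233 at an unadjusted p under 0.05, 3.97%). None of these tests placed the start of the response at one dose.

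The neighbouring steps, which share samples with this one, gave the following counts. From 0.05 mg/kg against vehicle upward, the steps had 939 (3.02%), 1107 (3.57%), 956 (3.08%), 1348 (4.34%) and 1479 (4.76%) probe sets at an unadjusted p under 0.05. At an unadjusted p under 0.001 the counts were 5 (0.0161%), 10 (0.0322%), 7 (0.0226%), 24 (0.0773%) and 46 (0.148%) in the same order. Every share at an unadjusted p under 0.05 lies below the 5% that chance alone gives. Of those at an unadjusted p under 0.001, only the share from 54.1 to 541 mg/kg lies above the threshold itself. Only the step from 54.1 to 541 mg/kg had a probe set past the FDR, that of Ces2c (1 of 31042, 0.00322%; 0.82 higher, limma adjusted p = 0.0294). That call was lost on leaving out a single array in 8 cases, namely replicate 1, 2, 3, 4 or 5 at 54.1 mg/kg or replicate 1, 3 or 6 at 541 mg/kg. With only the samples compared in the fit it was lost too, and the probe set of Cyp2b1 and Cyp2b2 passed instead (0.98 higher, limma adjusted p = 0.0246). Over 2 steps, 541 against 5.41 mg/kg, a comparison added after the data were seen, 18 probe sets passed (0.058%), all higher.

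Several enzymes of the first phase of drug metabolism were higher. Ces2c, a carboxylesterase that splits ester drugs and lipids, ranged from 7.13 through a median of 7.48 to 7.56 at 5.41 mg/kg and from 7.56 through 8.01 to 8.52 at 54.1 mg/kg. The lowest sample at 54.1 mg/kg lay just above the highest at 5.41 mg/kg, so the groups did not overlap. That lowest sample was replicate 5, the array that stood apart, and without it the difference was 0.70. With all samples the difference was 0.61 ± 0.14 (1.53-fold, 95% interval 0.33 to 0.89; limma adjusted p = 0.563). Ces2c was 7.33 ± 0.21 in vehicle, 7.23 ± 0.29 at 0.05, 7.44 ± 0.14 at 0.54 and 8.84 ± 0.35 at 541 mg/kg. Its 4 groups up to 5.41 mg/kg overlapped. The step at 54.1 exceeded the one at 5.41 mg/kg by 0.65 ± 0.24 (limma adjusted p = 1.0).

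Cyp2c6v1, a P450 of the CYP2C family that oxidises drugs and steroids, is among the brightest probe sets of the liver. Its samples ran from 13.45 through a median of 13.58 to 13.73 at 5.41 mg/kg and from 13.76 through 13.79 to 13.86 at 54.1 mg/kg. The groups did not overlap, though they differed by only 0.22 ± 0.05 (1.16-fold, interval 0.12 to 0.31; limma adjusted p = 0.532). Cyp2c6v1 stood at 13.89 ± 0.04 at 541 mg/kg and at 13.55 ± 0.07 in vehicle. A probe set annotated to both Cyp2b1 and Cyp2b2, the P450 genes known for their response to phenobarbital, was singled out after its values were seen. Its samples ran from 10.88 through 11.4 to 11.56 at 5.41 mg/kg and from 11.98 through 12.17 to 12.38 at 54.1 mg/kg, with no overlap. The difference was 0.83 ± 0.22 (1.78-fold, interval 0.39 to 1.28; limma adjusted p = 0.985). The step from 0.54 to 5.41 mg/kg was 0.55 ± 0.22. At 0.54 mg/kg replicate 6 lay at 9.68 and the other samples between 10.73 and 11.20. The step from 54.1 to 541 mg/kg was 0.98 ± 0.22, so the 3 upper steps of this probe set were all upward. None passed in the model of all 36 samples; with only the samples compared, this step (limma adjusted p = 0.0371) and the one above it (limma adjusted p = 0.0246) did. Because 2 genes share the probe set, the signal cannot be assigned to either.

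Cyp3a23-3a1, a P450 that PXR is known to raise, was between 12.52 and 12.96 (median 12.78) at 5.41 mg/kg and between 12.89 and 13.27 (median 13.12) at 54.1 mg/kg. The ranges overlapped slightly, and the difference was 0.33 ± 0.11 (limma adjusted p = 1.0). Cyp1a1, the classical target of the AhR, was 0.43 ± 0.14 higher (limma adjusted p = 1.0) at a low level, while Cyp1a2 differed by 0.08 ± 0.05. The step before was -0.21 for Cyp1a1. Of 7 measured AhR target genes, 3 were higher and 4 lower, with a median of -0.05 and 1 higher at an unadjusted p under 0.05 in limma. Ephx1, the microsomal epoxide hydrolase, was 0.27 ± 0.10 higher (0.16 without replicate 6 at 5.41 mg/kg, a low sample), and Aldh1a1, which oxidises retinal and other aldehydes, was 0.36 ± 0.14 higher; the limma adjusted p was 1.0 for both.

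Of 15 genes of glucuronidation and sulfation, 9 were higher and 6 lower, 3 higher and 1 lower at an unadjusted p under 0.05, with a median of 0.02. The lower one was Sult1a1, a sulfotransferase named after its values were seen (-0.16 ± 0.07), and that count was 0 on leaving out replicate 4 or 5 at 54.1 mg/kg; the 3 higher were Ugt2b1, Ugdh and Sult2a6. Ugt2b1, a glucuronosyltransferase, ranged from 12.05 through a median of 12.43 to 12.46 at 5.41 mg/kg and from 12.75 through 12.97 to 13.07 at 54.1 mg/kg. The groups did not overlap, and the difference was 0.58 ± 0.13 (1.5-fold, interval 0.32 to 0.85; limma adjusted p = 0.532). Its means were 12.08 ± 0.17 in vehicle, 12.14 ± 0.24 at 0.05, 12.05 ± 0.45 at 0.54, 12.35 ± 0.16 at 5.41, 12.93 ± 0.14 at 54.1 and 13.09 ± 0.11 at 541 mg/kg. The 54.1 to 541 mg/kg step of Ugt2b1 was 0.16. Ugt2b10, of the same enzyme family, was 0.32 higher at 54.1 than at 5.41 mg/kg (interval 0.16 to 0.49, limma adjusted p = 0.902), with 5 of 6 samples above all those at 5.41 mg/kg. Probe sets of near-identical Ugt2b genes can share signal, which was not tested.

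Gsta3, a glutathione transferase, was more variable. It ranged from 7.08 through a median of 7.66 to 8.87 at 5.41 mg/kg and from 8.35 through 8.76 to 9.02 at 54.1 mg/kg, so the groups overlapped. Its difference was 0.96 ± 0.28 (1.94-fold, interval 0.40 to 1.52; limma adjusted p = 1.0). The step before it went the other way, by -0.36, from 8.11 ± 0.60 at 0.54 mg/kg. Gsta1 was 0.14 higher and Mgst2, a microsomal glutathione transferase, 0.21 higher; in each, 5 of 6 samples at 54.1 mg/kg lay above all at 5.41 mg/kg and the limma adjusted p was 1.0.

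The exporter Abcc3, which moves glucuronide conjugates from the hepatocyte into blood, had one of the largest differences in size. It ranged from 4.70 through a median of 5.35 to 6.38 at 5.41 mg/kg and from 6.00 through 6.46 to 6.79 at 54.1 mg/kg, with 4 of 6 samples above all at the lower dose. The difference was 1.00 ± 0.28 (1.99-fold, interval 0.43 to 1.56; limma adjusted p = 1.0). Its SD was 0.66 at 5.41 mg/kg and 0.30 at 54.1 mg/kg, and at 541 mg/kg it was 7.07 ± 0.82.

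**Figure D2:**
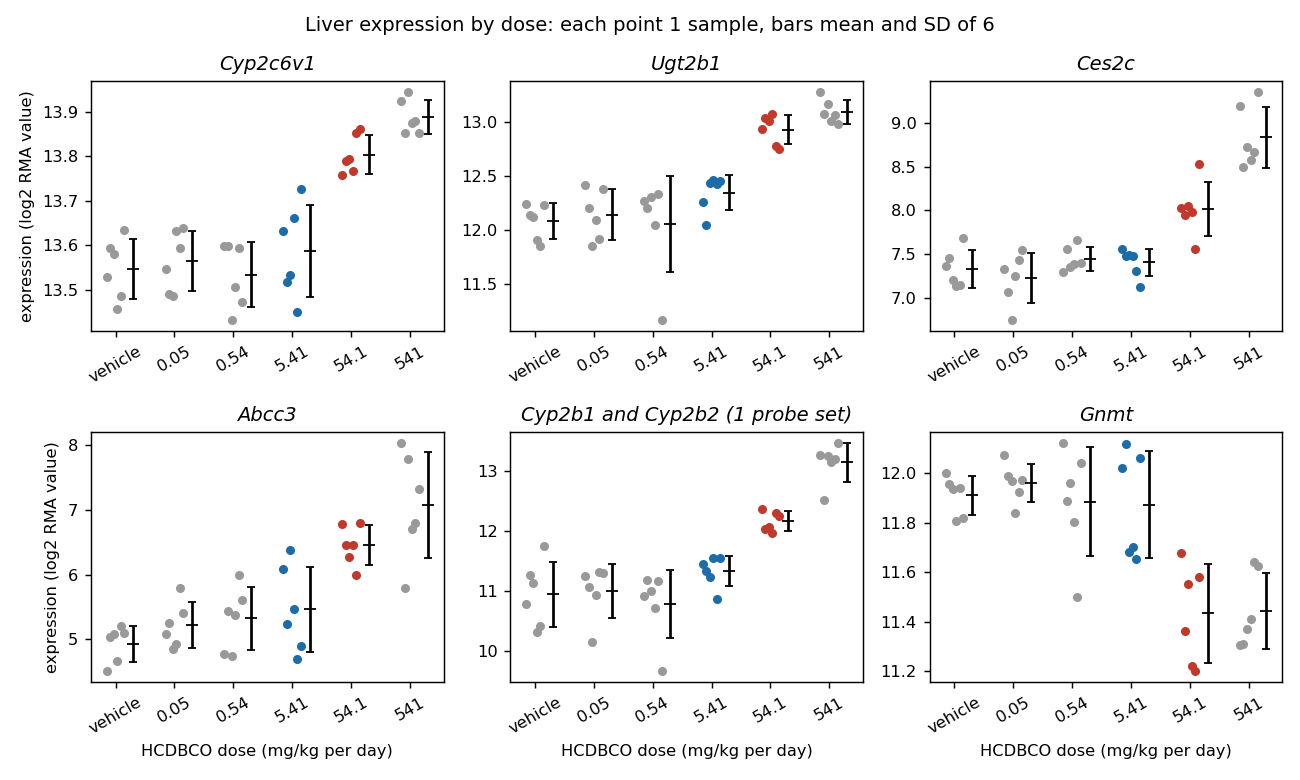
Log2 expression of 6 probe sets in all 36 samples by HCDBCO dose (mg/kg per day); points are samples (5.41 mg/kg blue, 54.1 mg/kg red), bars the mean and SD of 6. At 54.1 mg/kg the samples of Cyp2c6v1, Ugt2b1, Ces2c and the Cyp2b probe set all lie above those at 5.41 mg/kg, 4 of 6 do for Abcc3, and 5 of 6 samples of Gnmt lie below.

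Gnmt had the smallest p of all probe sets at the step. It encodes glycine N-methyltransferase, an abundant liver enzyme that spends S-adenosylmethionine to methylate glycine. Its samples ran from 11.65 through a median of 11.86 to 12.12 at 5.41 mg/kg and from 11.20 through 11.46 to 11.68 at 54.1 mg/kg. In Gnmt 5 of 6 samples at 54.1 mg/kg lay below all at 5.41 mg/kg, and the ranges met at one sample each. The difference was -0.44 ± 0.09 (1.36-fold lower, interval -0.63 to -0.25; limma adjusted p = 0.532). Gnmt stood at 11.91 ± 0.08 in vehicle, 11.96 ± 0.08 at 0.05, 11.88 ± 0.22 at 0.54 and 11.44 ± 0.15 at 541 mg/kg. The steps to either side were -0.01 and 0.01, so nearly all of the difference between the lower and the higher doses lay at this step. The difference between this step and the next was 0.45 ± 0.16 (limma adjusted p = 0.999).

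Other genes among the 12 with the smallest p in each direction had smaller or less steady differences. Dync2h1, a motor protein of cilia, ranged from 4.79 to 5.00 at 5.41 mg/kg and from 5.04 to 5.52 at 54.1 mg/kg, without overlap, and was 0.30 higher. It was 0.30 lower again at 541 than at 54.1 mg/kg, where its mean was 4.89 ± 0.09, as at 5.41 mg/kg. Rtl6, a gene derived from a retrotransposon, was 0.30 higher, Cyp27b1, which makes active vitamin D, 0.30 higher, and Tet1, which oxidises methylated cytosine, 0.25 higher. For each of these 3 genes 5 of 6 samples lay above all at 5.41 mg/kg, and no adjusted p was under 0.05 in limma. C4h3orf22 completed that list at 0.24 higher. A probe set of Elmod3, not the brightest of that gene and named after its values were seen, was 0.32 higher (limma adjusted p = 0.532), whereas the gene's other probe set was 0.16 higher.

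Among the lower genes, Olfml3, a secreted glycoprotein, ranged from 6.46 to 6.74 at 5.41 mg/kg and from 6.19 to 6.40 at 54.1 mg/kg, without overlap, a difference of -0.29. Mex3d, an RNA-binding protein, differed by -0.47, Crip2 by -0.25, Cdsn by -0.25, Ubtd1 by -0.23, Uqcc6, an assembly factor of respiratory complex III, by -0.25, and Adm, the vasodilator adrenomedullin, by -0.29. Hexim1, an inhibitor of transcription elongation, differed by -0.25. No limma adjusted p among these was under 0.05.

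Retsat, Slc25a25 and Acaa2 were lower at this step and not lower again at the next dose. Retsat, which saturates retinol, ranged from 11.23 through a median of 11.86 to 11.95 at 5.41 mg/kg and from 9.85 through 10.73 to 11.43 at 54.1 mg/kg. The groups overlapped, and the difference was -1.07 ± 0.31 (2.1-fold lower; limma adjusted p = 1.0). Retsat was 11.70 ± 0.40 at 541 mg/kg, a step of 1.04 upward, and its vehicle samples alone spanned 9.99 to 12.06. Slc25a25, a mitochondrial carrier of ATP and phosphate, differed by -0.94 ± 0.28 (limma adjusted p = 1.0) after a step of 0.63 upward from 0.54 to 5.41 mg/kg, and by 0.14 at the step after. Acaa2, the thiolase that ends mitochondrial beta-oxidation, differed by -0.39, with the step below at 0.23 and the step above at 0.31, and its second probe set by -0.12.

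A set of probe sets chosen in other samples gives a second view of the step. In the comparison of 541 mg/kg with vehicle, 48 probe sets passed the FDR, 36 higher (0.116%) and 12 lower (0.0387%). That choice uses no sample of 54.1, 5.41, 0.54 or 0.05 mg/kg, although the normalisation and the fitted spread are common to all arrays. The last probe set inside the threshold had an adjusted p of 0.0493 and the first outside 0.0503 in limma. In the 54.1 against 5.41 mg/kg comparison, 35 of the 36 that rose at 541 mg/kg were higher, against 51.4% of all probe sets, with a median difference of 0.14 against 0.0025. Of the 36, 17 were higher at an unadjusted p under 0.05, beside 2.46% of all probe sets, and 5 had groups that did not overlap, beside 0.0709%. None of the 36 passed the FDR at the step. The 36 are not independent of each other, since App and Mmgt1 are each there more than once and all were measured in the same samples. Of the 12 that fell at 541 mg/kg, all 12 were lower at 54.1 than at 5.41 mg/kg, against 48.6% of all, with a median of -0.13, and 6 were lower at an unadjusted p under 0.05, beside 1.88%.

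The same 48 were then followed through the lower steps, which share the samples of 5.41 or 0.54 mg/kg with their neighbours. From 0.54 to 5.41 mg/kg, 24 of the 36 were higher (48.6% of all probe sets), with a median of 0.04, and 3 at an unadjusted p under 0.05 (1.36%). From 0.05 to 0.54 mg/kg, 17 of the 36 were higher (51.2% of all), with a median of 0.00, and 0 by limma at an unadjusted p under 0.05 (2.27%). Of the 12, 8 were lower from 0.54 to 5.41 mg/kg (51.4% of all), with a median of -0.02 and 1 at an unadjusted p under 0.05 (1.72%). From 0.05 to 0.54 mg/kg 5 were lower (48.8% of all), with a median of 0.01 and 0 by limma at an unadjusted p under 0.05 (1.3%). Among these 3 steps, the one from 5.41 to 54.1 mg/kg was the largest in the direction of the 541 mg/kg change for 28 of the 36 and 10 of the 12, and the step below it for the other 8 and 2.

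**Figure D3:**
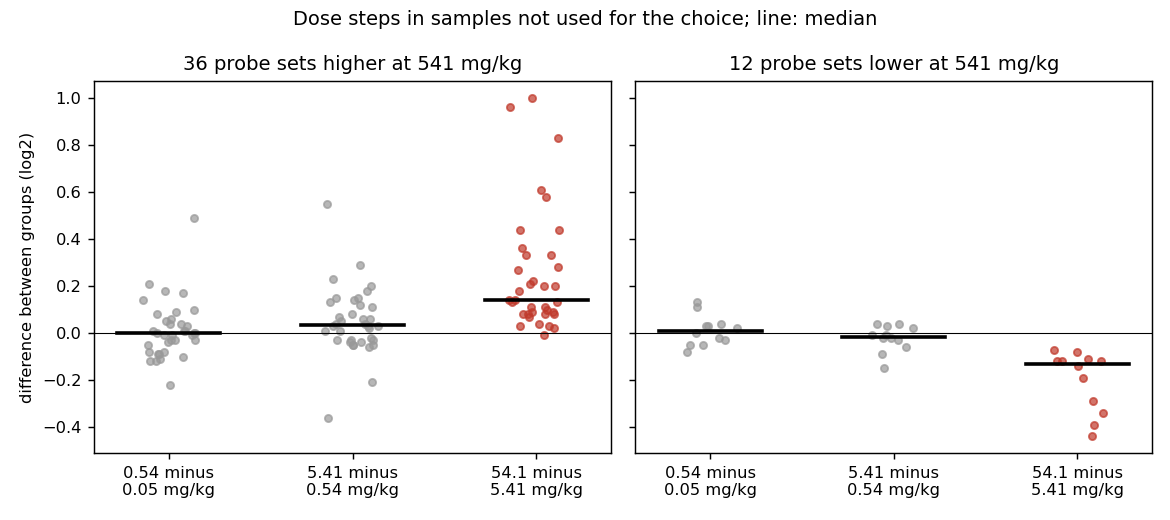
Log2 differences of the 36 probe sets that rose (left) and the 12 that fell (right) at 541 mg/kg against vehicle, at the 3 dose steps made of samples not used for that choice; 1 point per probe set, black lines the medians. The medians at the step from 5.41 to 54.1 mg/kg (red) are 0.14 and -0.13; those of the step before are 0.04 and -0.02.

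Averaged per sample, the 36 probe sets lay between 8.87 and 9.10 at 5.41 mg/kg (mean 8.98 ± 0.09) and between 9.15 and 9.27 at 54.1 mg/kg (9.23 ± 0.05). The 12 lay between 8.58 and 8.75 at 5.41 mg/kg (8.68 ± 0.06) and between 8.45 and 8.54 at 54.1 mg/kg (8.48 ± 0.03). Neither average overlapped between the groups. At 0.05 and 0.54 mg/kg the average of the 36 was 8.92 ± 0.11 and 8.93 ± 0.09, and that of the 12 was 8.69 ± 0.09 and 8.70 ± 0.08. The vehicle average of the 12 was 8.88 ± 0.08, above those doses, but vehicle and 541 mg/kg samples made the choice and their averages are given as a description only. Without 54.1 mg/kg replicate 5, 35 of 36 were higher (median 0.17, 15 at an unadjusted p under 0.05) and 12 of 12 lower (median -0.14, 6). With each of the 12 samples left out in turn, 33 to 35 of the 36 were higher and all 12 were lower.

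**Figure D4:**
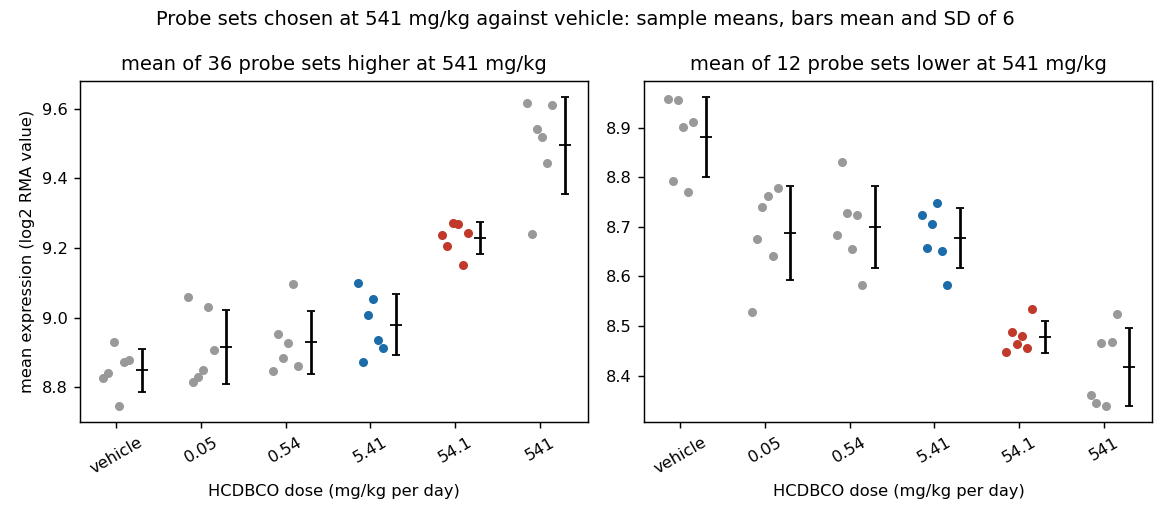
Mean log2 expression per sample of the 36 probe sets that rose (left) and the 12 that fell (right) at 541 mg/kg against vehicle, by HCDBCO dose; bars are the mean and SD of 6, and the vehicle and 541 mg/kg samples were those used for the choice. All samples at 54.1 mg/kg (red, 9.15 to 9.27 and 8.45 to 8.54) lie outside the range at 5.41 mg/kg (blue, 8.87 to 9.10 and 8.58 to 8.75).

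Besides the genes above, the 36 included App, the amyloid precursor protein, Blvrb, a biliverdin reductase, and Htatip2. Pir, an iron-binding nuclear protein that NRF2 is known to raise, rose by 0.69 at 541 mg/kg against vehicle and was 0.11 higher at the 54.1 mg/kg step, after 0.20 at the step before and before 0.36 at the step after. Leaving out 1 sample made the 0.11 of Pir as low as 0.07 (replicate 2 at 5.41 or replicate 4 at 54.1 mg/kg). Akr7a3, which detoxifies aflatoxin dialdehyde, was 0.08 ± 0.17 higher at this step and 0.41 higher at the next. The value of 0.08 was 0.23 without replicate 4 at 5.41 mg/kg, whose level of 11.80 lay above the other samples (10.70 to 11.04), and 0.01 without replicate 6 there, so it carries no direction. Among the 12, Klf9, a transcription factor, was -0.34 at the step, with samples from 9.67 to 10.34 at 5.41 mg/kg and from 9.53 to 9.85 at 54.1 mg/kg. The probe sets of Crem, a regulator of cAMP responses, gave values between -0.39 and -0.06, and Glud1, glutamate dehydrogenase, was -0.12.

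The gene lists describe the step by pathway, with 1 probe set per gene. Over 14217 genes, 4.3% had an unadjusted p under 0.05, the median difference was 0.0038, and 52.3% were above 0; no gene of any list passed the FDR (limma). Of 24 measured CAR and PXR target genes, 20 were higher and 4 lower, 12 were higher and 0 lower at an unadjusted p under 0.05, and the median was 0.15. They included most of the drug-processing genes above and the sulfotransferase Sult2a6 (0.44) and the drug pump Abcb1a (0.27), the latter named after its values were seen. Cyp3a2 (0.06) and Cyp2c7 (0.00), also on the list, stayed near 0. With 1 sample left out, 8 to 12 genes of the list were higher and 0 to 1 lower at an unadjusted p under 0.05 in limma. Its median then ran from 0.13 to 0.19. This list overlaps the genes known to move at 541 mg/kg in these samples and is not independent evidence of direction. At the step before, its median was -0.02 with 1 gene higher at an unadjusted p under 0.05.

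Of 24 NRF2 target genes, 22 were higher and 2 lower, 6 were higher at an unadjusted p under 0.05, and the median was 0.11. Without replicate 5 at 54.1 mg/kg, 20 were higher, 9 of them at that level. The CAR and PXR list holds 4 of the 24 as well: Abcc3, Gsta3, Ephx1 and Akr7a3. Of these, Abcc3, Gsta3 and Ephx1 were among the 6. Hmox1 (-0.07), Gclm (0.01) and Txnrd1 (0.02), also on the NRF2 list and named after their values were seen, stayed near 0. Nqo1, the quinone reductase often read as a marker of NRF2, was 0.43 ± 0.24 higher (interval -0.07 to 0.92, limma adjusted p = 1.0). Ugdh, which makes the sugar donor for glucuronidation, was 0.17 higher. Of 26 genes of glutathione transfer and synthesis, 17 were higher and 9 lower, 5 higher at an unadjusted p under 0.05 (3 on leaving out replicate 3 at 5.41 mg/kg or replicate 6 at 54.1 mg/kg), with a median of 0.03.

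Lipid synthesis genes were mostly on the higher side. Of 19 fatty acid synthesis genes, 16 were higher and 3 lower, 7 were higher at an unadjusted p under 0.05, and the median was 0.17. Fasn, the fatty acid synthase, ranged from 9.61 through 9.89 to 10.32 at 5.41 mg/kg and from 9.98 through 10.3 to 10.44 at 54.1 mg/kg. The groups overlapped; the difference was 0.38 ± 0.12 (limma adjusted p = 1.0), and its other probe set gave 0.23. Me1, the malic enzyme that supplies NADPH, was 0.31 higher, its second probe set 0.44 higher, and Acsl3, an acyl-CoA synthetase, 0.21 higher. Scd, the stearoyl-CoA desaturase, named after its values were seen, lay at -0.75 ± 0.39. At 541 against 54.1 mg/kg the list's median was -0.09, with 16 of 19 genes lower. Of 19 cholesterol synthesis genes, 17 were higher and 2 lower, but 1 was higher at an unadjusted p under 0.05 (Nsdhl, 0.14), with a median of 0.13. Leaving out replicate 1 or 2 at 54.1 mg/kg made that last count 5 or 2, and leaving out replicate 3 at 5.41 mg/kg made it 4. It was 0 on leaving out replicate 2, 5 or 6 at 5.41 mg/kg or replicate 3 or 6 at 54.1 mg/kg, and 0 with centred arrays. For this list the steps just below and just above, which share samples, both had medians of -0.08. From 0.05 to 0.54 mg/kg its median was 0.14. Its mean level was 10.36 ± 0.21 at 0.54, 10.29 ± 0.09 at 5.41 and 10.39 ± 0.11 at 54.1 mg/kg, so the level at 54.1 mg/kg was close to that at 0.54 mg/kg.

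Chaperones of the endoplasmic reticulum were among the genes with small p-values. Pdia6, a disulfide isomerase, ranged from 11.45 through 11.5 to 11.70 at 5.41 mg/kg and from 11.62 through 11.76 to 11.82 at 54.1 mg/kg, and was 0.20 higher (limma adjusted p = 1.0). Calr, the lectin chaperone calreticulin, was 0.26 higher and Hsp90b1 0.18 higher. Of 17 genes of the unfolded protein response, 10 were higher and 7 lower, 6 were higher and 1 lower at an unadjusted p under 0.05, and the median was 0.13; leaving out replicate 3 at 5.41 mg/kg, 3 were higher at that level. The neighbouring steps, which share samples, had medians of -0.12 and -0.13. Pdia6 was 11.72 ± 0.06 at 0.54, 11.54 ± 0.10 at 5.41, 11.74 ± 0.08 at 54.1 and 11.62 ± 0.09 at 541 mg/kg, so its level at 54.1 mg/kg was close to that at 0.54 mg/kg.

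Several lists lay on the lower side, among them those of amino acid metabolism and of the glucocorticoid receptor. Medians of other lists were as low: immediate early genes had -0.08 (11 of 17 lower), cell cycle genes -0.07 and glucose production genes -0.06, while that of thyroid hormone response genes was 0.00. Of 10 methionine cycle genes, 9 were lower and 1 higher, 2 lower at an unadjusted p under 0.05 (Gnmt, and Cth at -0.11), with a median of -0.05. That count was 1 on leaving out replicate 1, 2, 3 or 6 at 5.41 mg/kg or replicate 2, 4 or 5 at 54.1 mg/kg. Of 22 genes that break down amino acids or belong to the urea cycle, 18 were lower and 4 higher, 4 lower and 1 higher at an unadjusted p under 0.05, with a median of -0.07. The 4 became 1 on leaving out replicate 2 at 5.41 mg/kg, and 2 on leaving out replicate 1 or 6 there or replicate 5 at 54.1 mg/kg. Ddc, the aromatic amino acid decarboxylase, was the 1 gene higher at that level, at 0.30. Without replicate 5 at 54.1 mg/kg, 13 of the 22 were lower and 9 higher, with a median of -0.02. All 7 measured markers of periportal hepatocytes, 5 of them also on the amino acid list, were lower, with a median of -0.13 and 2 at an unadjusted p under 0.05 (0 on leaving out replicate 1, 2 or 6 at 5.41 mg/kg or replicate 5 at 54.1 mg/kg); their mean level spanned 10.35 to 10.64 at 5.41 mg/kg and 10.17 to 10.5 at 54.1 mg/kg. Their part in the values of the amino acid genes was not tested.

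Of 12 glucocorticoid receptor target genes, 9 were lower and 3 higher, 3 lower at an unadjusted p under 0.05, with a median of -0.23. These were Tat, the tyrosine aminotransferase (-0.52 ± 0.22), the kinase Sgk1 (-0.82 ± 0.40) and Klf9 (-0.34 ± 0.13), each with a limma adjusted p of 1.0. Leaving out replicate 3 at 5.41 mg/kg made the count of 3 fall to 0, and leaving out replicate 2 there or replicate 6 at 54.1 mg/kg to 1. The step before had a median of 0.27 in the other direction, with Tat at 0.27 and Sgk1 at 0.29, and both steps use the 5.41 mg/kg samples.

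**Figure D5:**
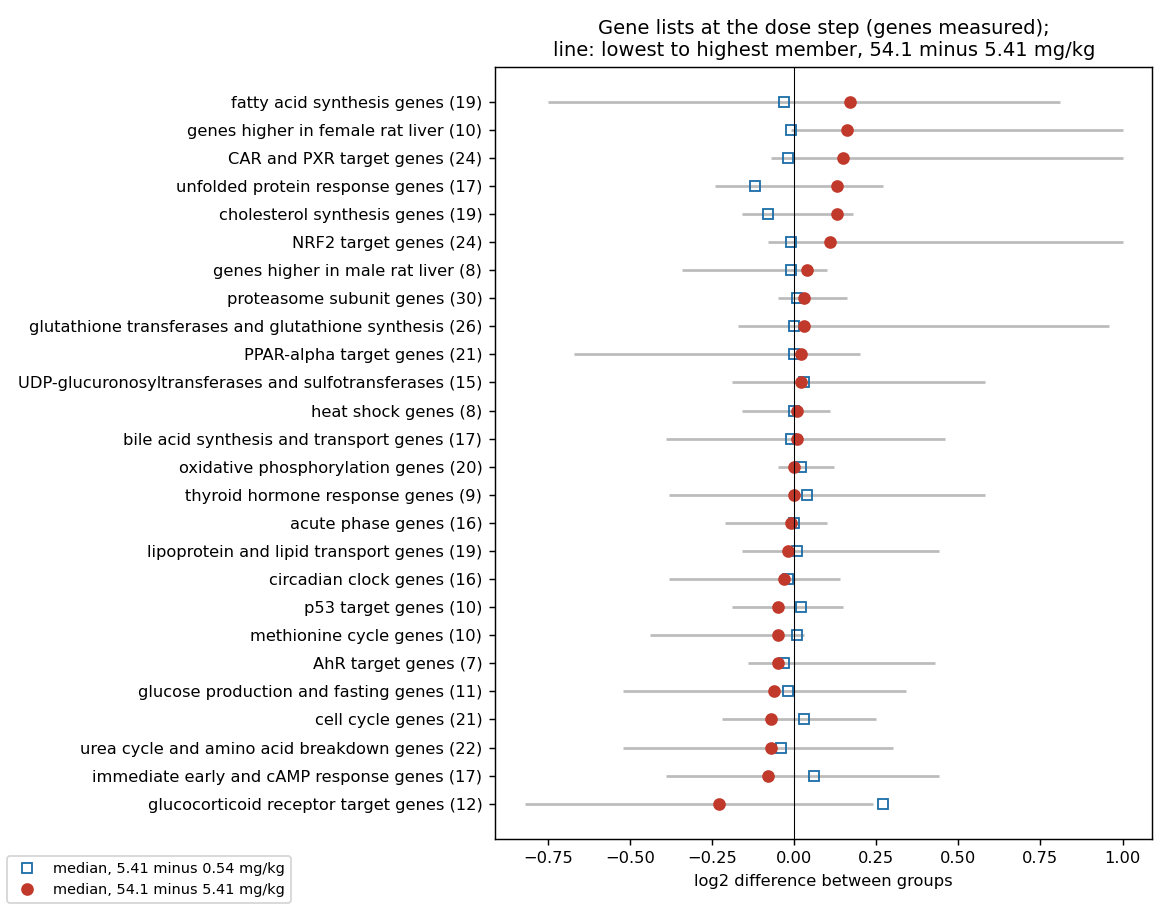
Median log2 difference of the 26 pathway lists at the step from 5.41 to 54.1 mg/kg (red points) and at the step from 0.54 to 5.41 mg/kg (open blue squares); grey lines run from the lowest to the highest member at the former, and numbers in brackets are genes measured. Fatty acid synthesis (0.17), female-biased (0.16) and CAR and PXR genes (0.15) have the highest medians and glucocorticoid receptor targets (-0.23) the lowest; both steps share the 5.41 mg/kg samples.

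Several classical liver responses had at most 1 gene each at an unadjusted p under 0.05 in limma at this step. The medians of cell cycle genes and p53 targets were nonetheless as low as those of the amino acid and methionine cycle lists. Of 21 PPAR-alpha target genes, which drive fatty acid oxidation, 13 were higher and 8 lower, with a median of 0.02 (-0.03 to 0.05 with one sample left out). Of 21 cell cycle genes 10 were higher and 11 lower (median -0.07). Of 10 p53 targets 4 were higher and 6 lower (median -0.05), of 16 acute phase genes 6 and 10 (median -0.01), and of 20 oxidative phosphorylation genes 11 and 9 (median 0.00). Cyp7a1, which starts the main route from cholesterol to bile acids, was 0.46 ± 0.42 higher and Fgf21, a fasting hormone, lay at -0.67 ± 0.64; these errors do not allow a direction to be read.

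No marker of other cells passed the FDR (limma). Of the 9 Kupffer cell markers all were lower (median -0.06; 0 in limma at an unadjusted p under 0.05), but 7 of 9 were higher on leaving out replicate 1 at 5.41 mg/kg (median 0.06) and 6 of 9 on leaving out replicate 3 at 54.1 mg/kg (median 0.03), so the list had no settled direction. With all samples, their mean level spanned 8.08 to 9.22 at 5.41 mg/kg and 7.81 to 8.87 at 54.1 mg/kg. Of 10 stellate cell markers 7 were lower and 3 higher (median -0.13). In limma 2 were lower (Des at -0.26, Pdgfrb at -0.25) and 1 higher (Rgs5 at 0.37) at an unadjusted p under 0.05. At the step before, which shares the 5.41 mg/kg samples, the median of this list was 0.16. Of 9 markers of sinusoidal endothelium 7 were higher and 2 lower (median 0.07). Their part in the differences above was not tested.

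The count at the step depended on which samples stood beside 54.1 mg/kg. With the fit restricted to the 12 samples, 1 probe set passed, that of the Cyp2b pair (limma adjusted p = 0.0371). Set against the 18 samples of the 3 lowest doses together, 5 passed (0.0161%): Ugt2b1 rose by 0.75, Ces2c by 0.66, Cyp2c6v1 by 0.24 and the Cyp2b probe set by 1.13, and Gnmt fell by 0.47. Set against all 24 samples of vehicle and the 3 lowest doses, 18 passed (0.058%), 14 higher and 4 lower. These included Abcc3 (1.22 higher, limma adjusted p = 0.0111), Me1, Dync2h1 (0.30 higher, adjusted p = 0.0173) and Hexim1 (-0.33, adjusted p = 0.00772). These larger groups mix doses and are not the single step.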

How the data were processed

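Liver RNA of 36 rats' samples was measured on 1 array each. The deposited values are log2 expression values that the authors made with RMA and the affy package, per the submitters' processing notes, which give no versions; RMA corrects background, normalises between arrays and summarises probes. The base of the logarithm was taken as RMA's. Raw intensities were not used here. Of 31099 probe sets, 57 controls were left out and 31042 tested; 20826 had 1 gene symbol in the array annotation, 436 several and 9780 none listed. Array medians lay between 5.06 and 5.17. Precision is set by how many arrays there are, and a typical (median) standard error at the step was 0.0799.

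Groups came from the sample titles. A one-way model of 6 group means over all 36 samples was made with limma (version 3.58.1; R 4.3.3). Its tests were two-sided, with Benjamini-Hochberg adjustment across the 31042 probe sets and a false discovery rate of 5%. The design text names another R package, which was not used. Where several probe sets map to a gene, the brightest on average stood for it; other probe sets are named where they differ. Named genes were the 12 of smallest p in each direction (none passed), up to 3 of smallest p from each list, a short list of reference genes, and the largest rises and falls at 541 mg/kg against vehicle. The samples, the 39 gene lists and the rules were chosen with earlier results of these data known. The model was tested on simulated data. Same-numbered samples of the 2 groups had deviations correlated between -0.227 and 0.128, so numbers were not taken as pairs. Alternatives were a filter on dim probe sets, array weights, a mean-dependent robust prior, centring, a replicate block, other sets of samples and leaving out each sample.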

Additional observations from a re-analysis of the deposited data

Results flagged for a closer look

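For the 142 genes named by the rule, each of the 284 groups at 5.41 and 54.1 mg/kg was searched for a single sample far from the other 5. In 16 of them (5.63%) the highest or lowest sample was separated by more than Dixon's limit; chance alone gives about 1 in 20. All values are log2 expression values, with the range of the other 5 samples in brackets. Replicate 6 at 54.1 mg/kg was the lowest for Gsta1 at 12.98 (13.09 to 13.11), the lowest for Hbb at 11.80 (12.34 to 12.59) and the lowest for Zdhhc2 at 6.01 (6.62 to 6.82). Replicate 1 at 54.1 mg/kg was the lowest for Crem at 9.72 (9.93 to 10.02) and the lowest for Cp at 13.19 (13.29 to 13.32). Replicate 5 at 54.1 mg/kg was the lowest for Hsp90b1 at 12.22 (12.34 to 12.39), the highest for Plk3 at 4.91 (4.43 to 4.60), the highest for Gpr15lg at 3.74 (3.52 to 3.60) and the lowest for Dio1 at 6.97 (7.27 to 7.38). Replicate 6 at 5.41 mg/kg was the lowest for Psmd2 at 9.62 (9.93 to 10.09) and the lowest for Ephx1 at 12.01 (12.52 to 12.82). Replicate 2 at 5.41 mg/kg was the highest for Serpina1 at 14.23 (14.13 to 14.16) and the lowest for Adipoq at 3.45 (3.66 to 3.75). Replicate 1 at 5.41 mg/kg was the highest for Klrd1 at 4.53 (3.70 to 3.85) and the lowest for Saysd1 at 7.29 (7.46 to 7.49). Replicate 4 at 5.41 mg/kg was the highest for Akr7a3 at 11.80 (10.70 to 11.04). The low Ephx1 and Saysd1 samples at 5.41 mg/kg and the high Akr7a3 sample there enter the differences of those genes at the step.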

How the results depend on the processing

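The count of probe sets past the FDR at 54.1 against 5.41 mg/kg was 0 in limma with array weights, a robust prior, centred arrays and each of the 12 samples left out (1169 to 1765 at an unadjusted p under 0.05). With a filter on dim probe sets that count was also 0, of 15521 tested (654 at an unadjusted p under 0.05 in limma). It was 1 with only the 12 samples in the fit, 5 against 18 samples of the 3 lowest doses and 18 against 24 samples including vehicle. The tests of this step against its neighbours and the step from 0.54 to 5.41 mg/kg gave 0 in every setting run. The count at 541 against 54.1 mg/kg was 1 in each other setting, though with only the samples compared it was the Cyp2b probe set and not Ces2c, and 0 to 2 with one sample left out. With a replicate block the step count was 0 (limma, smallest adjusted p 0.36, 1385 at an unadjusted p under 0.05), and the block changed no other call; 0 of 6 samples correlated best with their own number, and labels do not say that numbers mark pairs. Among single genes, none of which passed in either fit, the direction turned for Spp1 (-0.08 against 18 samples, -0.06 against 24), and against 24 samples for Slco1a1 (-0.02), Jchain (-0.02) and Hbb (0.04), and with array weights for S100a9 (0.02). With a sample left out it turned for C1qa (range -0.25 to 0.01, 0.00 in one fit), S100a9 (-0.16 to 0.09, 0.08 in one fit), Hbb (-0.11 to 0.05), Alas2 (-0.02 to 0.13, -0.01 in one fit), Cyp4a1 (-0.02 to 0.21), Dio1 (-0.02 to 0.13) and Mki67 (-0.03 to 0.21, -0.01 in one fit). The cause was not tested.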

Other observations

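Genes known to be more active in the liver of female than of male rats were mostly on the higher side in these males, some by almost nothing. Cyp2c7 (0.00), A1bg (0.01) and Sult2a2 (0.02), the latter 2 named after their values were seen, stayed near 0 but count as higher below. Of 10 measured, 9 were higher and 1 lower at 54.1 against 5.41 mg/kg, with a median of 0.16; 3 were higher at an unadjusted p under 0.05 (1 without 5.41 mg/kg replicate 4 or 6). Without 5.41 mg/kg replicate 4, 6 were higher, and the median ran from 0.09 to 0.22 with one sample left out. These 3 were Cyp2c12, a female-typical P450 (0.39 ± 0.19; 0.20 without 5.41 mg/kg replicate 4), Sult2a6 (0.44 ± 0.21) and Abcc3 (1.00 ± 0.28), and the latter 2 are also CAR and PXR targets. Of 8 male-typical genes, 6 were higher and 2 lower, with a median of 0.04, and Cyp2c11, the main male P450, lay at -0.01. No member of either list passed the FDR in limma.

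The largest difference in size of any probe set at the step was 2.36. Cdh17, an intestinal and bile duct cadherin, was 1.46 ± 0.77 higher, with a large error. Ubd, a ubiquitin-like protein, lay at -1.48 ± 0.80, also with a large error. Both were named after their values were seen, and neither was at an unadjusted p under 0.05 in limma.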
